A study of Caenorhabditis elegans with 12 samples.

Results

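This account covers 10 protein-coding genes of Caenorhabditis elegans that carry no assigned gene symbol, out of 20389 gene rows in each count file: K12H6.9, K12H6.4, C16C8.9, C16C8.19, M176.10, F54D12.9, T10D4.15, F26D2.16, F26D10.13 and K11D12.6. They were chosen by name because their counts were high in XO gonads and close to 0 in XX gonads of the same libraries. The values in gonads are therefore given as a description with no test. All 10 names were found in all 12 files. In XO animals the genes had counts in the dissected gonad samples, but their scaled counts were from 7.53 to 19.2 times as high in whole worms. The words "high in XO gonads" thus hold relative to XX gonads and not relative to whole XO worms.

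Polyadenylated RNA was sequenced from 4 groups of 3 replicates, namely gonads dissected from XO young adults, gonads dissected from XX young adults, whole XO young adults and whole XX young adults. In all 4 groups the animals carried the temperature-sensitive allele fog-1(q253) and were kept at 25 °C, the restrictive temperature, so none of them has a wild-type germline. Gonad samples were pools of no fewer than 200 gonads, and whole worm samples were pools of no fewer than 600 worms picked by hand. A dissected gonad holds its somatic cells as well as its germ cells, and the labels do not say which parts were kept or whether replicates came from separate cultures. P-values therefore measure the spread between these samples, which may be technical.

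In C. elegans, XX animals develop a hermaphrodite body (a female one where no sperm are made) and XO animals a male body. fog-1 is needed for germ cells to become sperm, so fog-1 mutants of either karyotype make oocytes at the restrictive temperature, within a male or a female somatic gonad. The male somatic gonad ends in a seminal vesicle and a vas deferens, which store sperm and secrete the seminal fluid passed on at mating. The female somatic gonad forms sheath cells and spermathecae. Genes with no symbol are called by the cosmid or other clone on which they were found and a number, so names that share a clone, such as K12H6.9 and K12H6.4, mark genes that lie near each other. No function is stated here for any of the 10, and no nucleotide or protein sequence was used here.

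Libraries held from 7912618 to 16140259 gene counts. Levels are given in CPM, counts scaled to a common library size. Summed over 10 oocyte genes, they were 13271 to 14368 CPM in XO gonads, against 13835 to 18673 CPM in XX gonads. Summed over 40 sperm genes, they were 8.82 to 35.0 CPM in XO gonads, against 4.06 to 8.09 CPM in XX gonads, and 2 sperm genes in XO gonads and 9 in XX gonads had 0 counts. fog-1 mRNA itself averaged 592.8 ± 4.22 CPM in XO gonads and 46.0 ± 5.25 CPM in XX gonads (SD, n = 3 each). A temperature-sensitive allele need not change its own mRNA, so this level does not check the labels. XX gonad replicate 1 stood apart from its group: chi-square per degree of freedom against the other replicates was 113 and 155, while all other pairs of replicates lay between 4.80 and 19.7. For the 10 genes, the marker lists and the flanking genes whose XX gonad counts lay mostly in it, values are also given without it.

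In gonads, XO values lay above XX values without overlap for 10 of the 10 genes. That pattern was used to choose them. Over all 8558 genes tested in gonads it held for 16.7%, and edgeR called 27.8% of them in either direction. Mean levels in XO gonads ran between 5.92 CPM for T10D4.15 and 36.9 CPM for F26D2.16, with a median of 12.88 CPM. In bulk samples, fewer cells of a type and less RNA per cell cannot be told apart. All 10 passed the filter on low counts, which they did through the XO group alone. Summed over the 10 genes, XO gonad replicates 1, 2 and 3 held 1672, 2185 and 3301 counts, against 24, 5 and 2 counts in XX gonads. Of the 31 XX gonad counts, 24 were in XX gonad replicate 1, the library that stood apart, where all 10 genes had at least 1 count, against 3 genes in replicate 2 and 2 genes in replicate 3.

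**Figure D1:**
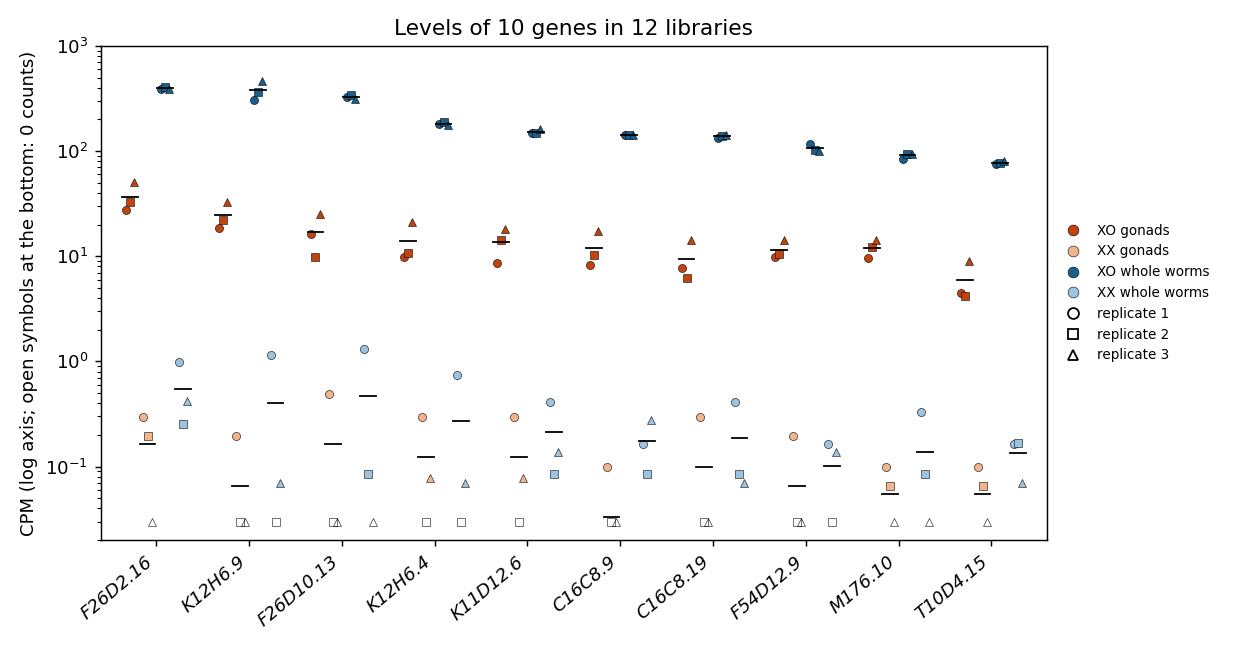
Levels of the 10 genes in each library (CPM, log axis), ordered by mean level in XO whole worms. Points are libraries, horizontal bars are means over 3 libraries, and open symbols at the bottom mark libraries with 0 counts. XO whole worms lie between 75.7 and 467 CPM, XO gonads between 4.20 and 50.4 CPM, and both XX groups at or under 1.31 CPM.

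K12H6.9 and K12H6.4 are neighbours on chromosome II. K12H6.9 had 256, 364 and 497 counts in XO gonads (18.5, 22.2 and 32.7 CPM), against 2, 0 and 0 counts in XX gonads. K12H6.4 had 638 counts over the XO gonads (9.90, 10.7 and 21.4 CPM), against 3, 0 and 1 counts in XX gonads. For both genes every XO library was high and no XX library held more than 3 counts. The ratio of XO over XX CPM, from counts summed over each group, was 471 (95% interval 130.1 to 3895) for K12H6.9 and 135 (52.3 to 495) for K12H6.4. These intervals, here and below, cover counting error only.

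C16C8.9 and C16C8.19 also share a stretch of chromosome II. C16C8.9 had 114, 169 and 263 counts in XO gonads (8.24, 10.3 and 17.3 CPM), against 1, 0 and 0 counts in XX gonads. C16C8.19 had 108, 102 and 215 counts in XO gonads (7.80, 6.21 and 14.2 CPM), against 3, 0 and 0 counts in XX gonads. The XX counts of both genes came from XX gonad replicate 1 alone. With that library left out, both had 0 counts in XX gonads, and the ratio was at least 113 for C16C8.9 and at least 87.9 for C16C8.19, against a floor of 3 counts over the remaining XX libraries.

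Among the other 6 genes, F26D2.16 on chromosome V had the highest level in XO gonads, with 383, 535 and 765 counts (27.7, 32.6 and 50.4 CPM), against 3, 3 and 0 counts in XX gonads. F26D10.13 on chromosome IV had 224, 161 and 387 counts in XO gonads (16.2, 9.80 and 25.5 CPM), against 5, 0 and 0 counts in XX gonads. K11D12.6 on chromosome V had 630 counts over the XO gonads (8.60, 14.2 and 18.3 CPM), against 3, 0 and 1 counts in XX gonads. F26D10.13 varied most between its lowest and highest XO gonad library, and its 5 XX gonad counts were all in replicate 1. M176.10, F54D12.9 and T10D4.15 lie on chromosome II, each on a clone of its own. M176.10 had 134, 203 and 215 counts in XO gonads (9.68, 12.4 and 14.2 CPM), against 1, 1 and 0 counts in XX gonads. F54D12.9 had 135, 173 and 218 counts in XO gonads (9.76, 10.5 and 14.4 CPM), against 2, 0 and 0 counts in XX gonads. T10D4.15, the lowest of the 10, had 62, 69 and 138 counts in XO gonads (4.48, 4.20 and 9.09 CPM), against 1, 1 and 0 counts in XX gonads. Over all 10 genes the gonad ratio ran between 113 for T10D4.15 and 471 for K12H6.9, with a median of 178, and the counting intervals of both ratios overlapped. Without XX gonad replicate 1 the ratio was 396 for K12H6.4, 391 for K11D12.6, 348 for F26D2.16, 342 for M176.10 and 167 for T10D4.15. F54D12.9, F26D10.13 and K12H6.9 then had 0 counts in XX gonads, and their ratios were at least 109, at least 159.7 and at least 231.

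In all 10 genes the highest XO gonad library was replicate 3. Its level was between 1.28 times (M176.10) and 2.09 times (T10D4.15) the mean of replicates 1 and 2. Summed over the 10 genes it was 217 CPM, against 121 and 133 CPM in replicates 1 and 2, a factor of 1.71. In the same libraries the factor was 1.46 for the summed list of male gonad and seminal fluid genes, 1.39 for sheath and spermatheca genes, 1.202 for muscle genes, 1.12 for neuron genes and 0.827 for intestine genes. It was 0.965 for epidermis and cuticle genes, 0.925 for oocyte genes, 0.952 for germ cell genes and 0.496 for sperm genes. The part of tissue makeup in the spread between XO gonad libraries was not tested.

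**Figure D2:**
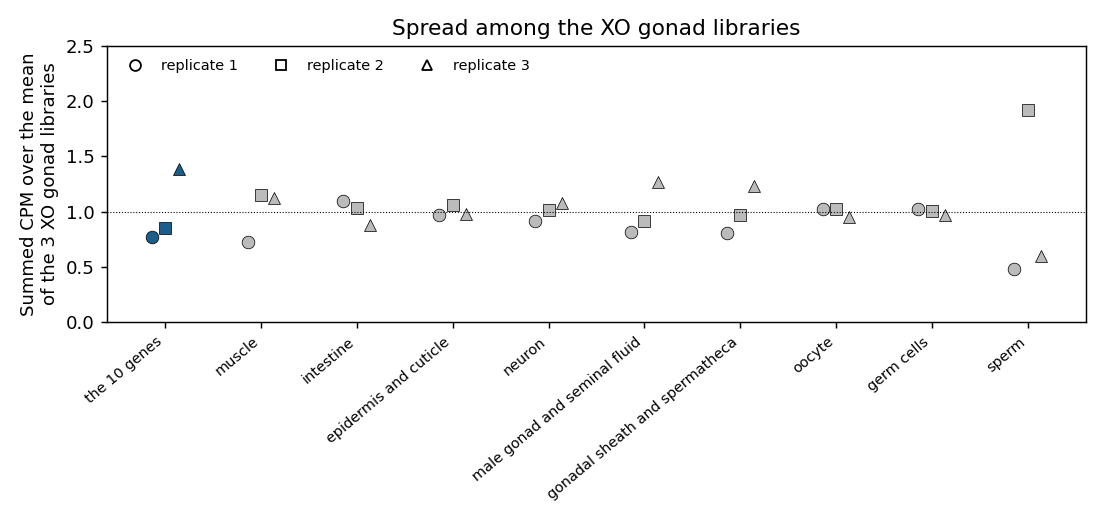
Summed CPM of the 10 genes and of 9 marker lists in each XO gonad library, divided by the mean of the 3 libraries. Symbols are replicates. Replicate 3 is highest for the 10 genes, for male gonad and seminal fluid genes, for sheath and spermatheca genes and for neuron genes.

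Whole worm libraries did not enter the choice of the genes, although earlier results of all these libraries were known when it was made. As in gonads, all 10 passed the filter on low counts through the XO group alone, so their number and median are given as a description, and the test is that of each gene. All 10 genes were called higher in XO than in XX whole worms in the quasi-likelihood test of edgeR after Benjamini-Hochberg adjustment, each more than 64-fold. Over all 12259 genes tested, 53.4% were called in either direction, 29.2% higher in XO and 2.45% at least 64-fold higher. XO values lay above XX values without overlap for 10 of the 10 genes, and for 31.1% of all genes tested. The 10 log2 fold changes ran between 9.15 and 9.92 with a median of 9.52, while the median of all genes tested was 0.02. By size of fold change the 10 ranked between 76 and 139 of the 12259 genes.

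**Figure D3:**
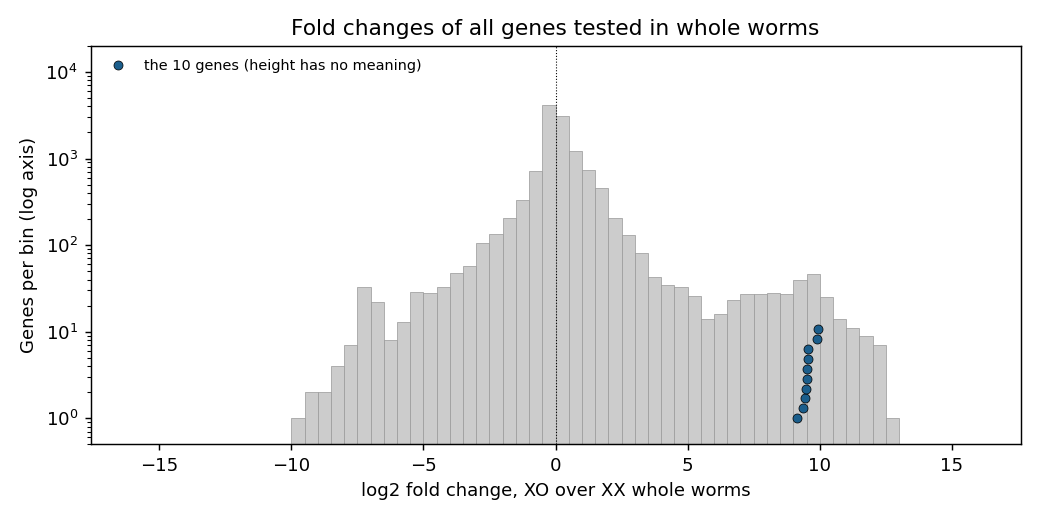
Number of genes per bin of log2 fold change, XO over XX whole worms, for all 12259 genes tested (grey bars, log axis), with the 10 genes as points whose height has no meaning. The points lie between 9.15 and 9.92, within the small set of genes at the right.

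K12H6.9 had 2793, 4849 and 7063 counts in XO whole worms (305, 363 and 467 CPM), against 14, 0 and 1 counts in XX whole worms (1.15, 0 and 0.0693 CPM). Its log2 fold change was 9.92 (SE 0.51, adjusted p = 7.95e-05 by edgeR's quasi-likelihood test). F26D10.13 had 3003, 4575 and 4782 counts in XO whole worms (328, 342 and 316 CPM), against 16, 1 and 0 counts in XX whole worms. Its log2 fold change was 9.54 (SE 0.41, adjusted p = 2.02e-05). K12H6.4 had 1653, 2532 and 2661 counts in XO whole worms (180.4, 189 and 175.9 CPM), against 9, 0 and 1 counts in XX whole worms, a log2 fold change of 9.43 (SE 0.29, adjusted p = 6.15e-08). In these 3 genes nearly all XX counts came from XX whole worm replicate 1, and they had the largest standard errors of the 10.

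F26D2.16 had 3606, 5497 and 5848 counts in XO whole worms (393, 411 and 387 CPM), against 12, 3 and 6 counts in XX whole worms, the highest XX total of the 10. Its log2 fold change was 9.52 (SE 0.15, adjusted p = 4.81e-14). C16C8.9 had 1293, 1883 and 2133 counts in XO whole worms (141, 141 and 141 CPM), against 2, 1 and 4 counts in XX whole worms, a log2 fold change of 9.56 (SE 0.15, adjusted p = 1.23e-14). C16C8.19 had 1219, 1857 and 2171 counts in XO whole worms (133, 139 and 144 CPM), against 5, 1 and 1 counts in XX whole worms, a log2 fold change of 9.53 (SE 0.18, adjusted p = 4.81e-14). The levels of C16C8.9 in the 3 XO whole worm libraries differed by less than 1 CPM, while those of C16C8.19 covered a wider range that included them.

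K11D12.6 had 1349, 1966 and 2446 counts in XO whole worms (147, 147 and 162 CPM), against 5, 1 and 2 counts in XX whole worms. F54D12.9 had 1068, 1376 and 1524 counts in XO whole worms (117, 103 and 101 CPM), against 2, 0 and 2 counts in XX whole worms. Their log2 fold changes were 9.48 (SE 0.16) and 9.90 (SE 0.21). M176.10 had 773, 1247 and 1434 counts in XO whole worms (84.3, 93.3 and 94.8 CPM), against 4, 1 and 0 counts in XX whole worms, a log2 fold change of 9.38 (SE 0.22). T10D4.15 had 694, 1024 and 1225 counts in XO whole worms (75.7, 76.6 and 81.0 CPM), against 2, 2 and 1 counts in XX whole worms, a log2 fold change of 9.15 (SE 0.17). The highest adjusted p among these 4 was 7.20e-13 by edgeR's quasi-likelihood test. XX whole worm replicate 1 held 71 of the 99 XX whole worm counts of the 10 genes, and was the highest of its group for 8 of them. With that library left out, all 10 calls held, but the log2 fold changes rose to 12.97 for K12H6.9, 12.77 for F26D10.13, 11.92 for K12H6.4, 10.92 for M176.10, 10.68 for C16C8.19, 10.29 for K11D12.6 and 10.17 for F26D2.16. Without XX whole worm replicate 3 they were 8.73 for M176.10 and 8.87 for F26D10.13. Over all 3 XX whole worm libraries, the 10 genes held 4 to 21 counts each, and fewer remain where a library is left out. XX whole worm replicates 2 and 3 held 0 and 1 counts of K12H6.9 and of K12H6.4. They held 1 and 0 counts of F26D10.13 and of M176.10.

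The 10 genes made up 0.221%, 0.227% and 0.223% of gene counts in the 3 XO whole worm libraries, and 0.0125%, 0.0135% and 0.0230% in the 3 XO gonad libraries. Every XO whole worm value lay above every XO gonad value for 10 of the 10 genes, which held for 31.7% of the 8414 genes tested in both tissues. Because the XO gonad libraries were used to choose the genes, this is a description with no test. M176.10 had the lowest ratio of whole worm over gonad CPM in XO animals, 7.53, followed by F54D12.9 at 9.25 and F26D2.16 at 10.8. F26D10.13 had the highest, 19.2, followed by K12H6.9 at 15.5 and C16C8.19 at 14.8. The median over the 10 genes was 12.4, and over all 8414 genes it was 0.758.

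Marker lists gave a scale for this ratio. Oocyte genes had ratios between 0.499 and 0.609 and germ cell genes between 0.465 and 0.594, so both lists were higher in XO gonads than in XO whole worms. Intestine genes had ratios between 27.5 and 73.4 and muscle genes between 41.7 and 83.5. The 10 genes, between 7.53 and 19.2, lay between these ranges. Other lists spanned the values of the 10: neuron genes had ratios between 1.31 and 59.6, epidermis and cuticle genes between 2.38 and 48.7, and sheath and spermatheca genes between 1.22 and 47.2. Of the male gonad and seminal fluid list, try-8, a gene of the trypsin-like protease family, had a ratio of 12.2, try-13 of the same family 5.67, and try-5, which encodes a protease of male seminal fluid that activates sperm, 18.1. mab-3, a DM-domain transcription factor gene of male development, had a ratio of 3.07, and her-1, which encodes a secreted protein that starts male fate, 1.44. swm-1, which encodes a protease inhibitor that acts in males, had a ratio of 196.

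**Figure D4:**
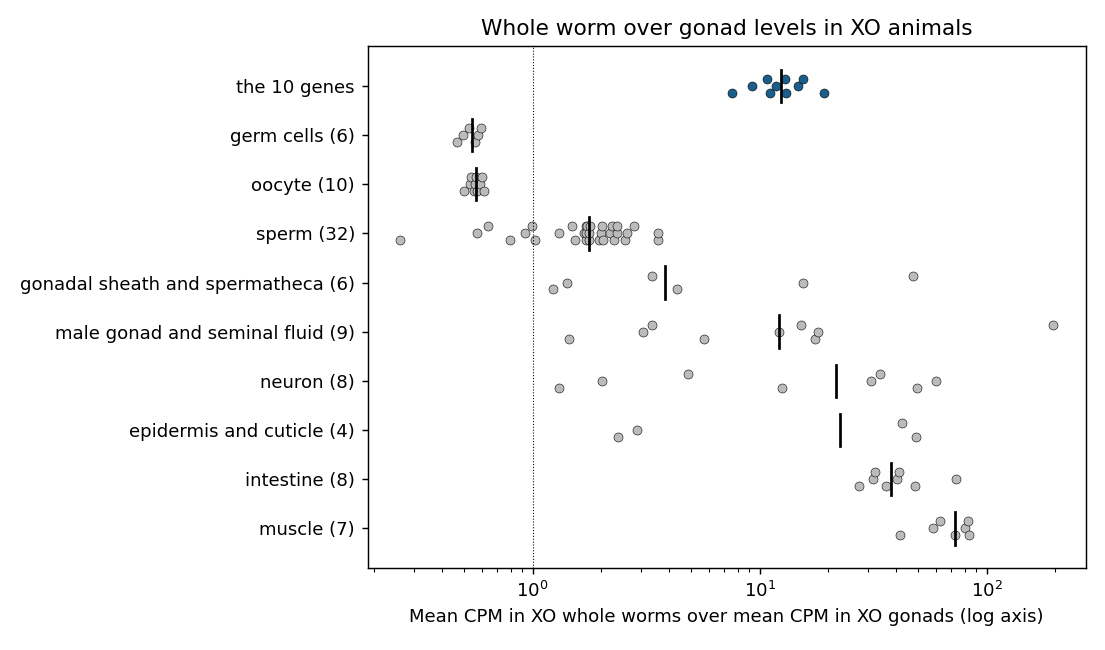
Mean CPM in XO whole worms over mean CPM in XO gonads (log axis) for the 10 genes and for the genes of 9 marker lists. Points are genes, vertical bars are medians, the dotted line marks equal levels, and the number of genes drawn stands in brackets. The 10 genes lie between 7.53 and 19.2, above all oocyte and germ cell genes and below all intestine and muscle genes, while the neuron, epidermis and cuticle, and sheath and spermatheca lists span them.

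As a share of the summed level in XO whole worms, XO gonads held 7.88% for the 10 genes, 13.7% for the male gonad and seminal fluid list, 2.72% for intestine genes, 1.29% for muscle genes, 2.19% for epidermis and cuticle genes and 25.1% for neuron genes. The neuron share rests mostly on snb-1, which averaged 131 of the summed 155 CPM in XO gonads. Its whole worm over gonad ratio was 1.31 and that of unc-119 was 2.02, while the other neuron genes lay between 4.85 and 59.6. The gonad samples thus held RNA of genes listed as markers of other tissues. Summed intestine levels were 118 to 148 CPM in XO gonads, against 28.4 to 77.8 CPM in XX gonads, and 4 of the 5 intestine genes tested were called higher in XO gonads by edgeR's quasi-likelihood test (8.07% of all genes tested). All 8 intestine markers had counts in both gonad groups. Epidermis and cuticle genes summed to 125 to 137 CPM in XO gonads, against 38.0 to 116 CPM in XX gonads. Of that list, 3 of the 3 genes tested were called higher and 2 of its 6 genes had 0 counts in both gonad groups. Summed muscle levels were 131 to 206 CPM in XO gonads, against 409 to 732 CPM in XX gonads, and 6 of 7 were called lower in XO gonads (19.7% of all genes tested). Whether RNA of the muscle list came from body muscle or from cells of the gonad was not tested. Sheath and spermatheca genes summed to 20.0 to 30.7 CPM in XO gonads, against 264 to 392 CPM in XX gonads, with 4 of 5 called lower. Neuron genes summed to 141 to 167 CPM in XO gonads, against 178 to 305 CPM in XX gonads, with 2 of 7 called higher and 1 lower. Of 6 germ cell genes, him-3 and htp-3 were called higher in XO gonads. XX gonad replicate 1 was the highest XX library for all of these lists. Without it, XX gonads held 28.4 and 42.8 CPM of intestine genes, 38.0 and 68.4 CPM of epidermis and cuticle genes, 409 and 539 CPM of muscle genes, 264 and 313 CPM of sheath and spermatheca genes, and 178 and 191 CPM of neuron genes. The counts of called genes were then the same, but for intestine genes, with 5 of 5 called higher. The part of RNA from tissue outside the gonad in the gonad values of the 10 genes was not tested.

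The 10 genes of the male gonad and seminal fluid list summed to 96.8 to 149 CPM in XO gonads, against 5.59 to 8.18 CPM in XX gonads, and to 861 to 868 CPM in XO whole worms, against 21.5 to 24.3 CPM in XX whole worms. try-8 and try-13, at 36.0 and 48.8 CPM in XO gonads, made up most of the sum there. In whole worms 8 of its 9 tested genes were called higher (29.2% of all genes tested) and 1, fkh-6, lower. In gonads 4 of 6 were called higher (8.07% of all genes tested), try-8, try-13, mab-3 and her-1, and 5 of 7 without XX gonad replicate 1. Mean levels of 4 of the 10 were below those of XX gonads, namely swm-1 with 0.133 CPM in XO gonads and 0.787 CPM in XX gonads, fkh-6 with 0.107 CPM in XO gonads and 1.15 CPM in XX gonads, egl-5 with 0.570 CPM in XO gonads and 0.984 CPM in XX gonads, and nhr-67 with 0.0406 CPM in XO gonads and 0.0780 CPM in XX gonads. try-8 and try-13 had already been seen at high levels in XO gonads of these libraries, so the list is not independent evidence of its direction.

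Per kilobase of exon, the order of levels was K12H6.9 first in both XO groups, at 837 ± 182 CPM per kb in XO whole worms and 54.1 ± 16.3 CPM per kb in XO gonads (SD, n = 3 each). F26D10.13 came next, at 655 ± 26.2 CPM per kb in XO whole worms and 34.2 ± 15.7 CPM per kb in XO gonads, then K12H6.4 at 393 ± 14.9 CPM per kb in XO whole worms and 30.2 ± 13.9 CPM per kb in XO gonads. F26D2.16, with the highest mean of the 10 in CPM and with exons that sum to 1385 bases, ranked 4 per kilobase, at 287 ± 9.22 CPM per kb in XO whole worms and 26.6 ± 8.62 CPM per kb in XO gonads. T10D4.15 and M176.10 were the lowest, at 73.9 ± 2.68 and 63.4 ± 3.95 CPM per kb in XO whole worms and at 5.63 ± 2.61 and 8.42 ± 1.57 CPM per kb in XO gonads. In XO whole worms, K12H6.9 and F26D10.13 overlapped in range, as did C16C8.9 with C16C8.19 and C16C8.19 with K11D12.6, and the other 6 of the 9 neighbouring pairs in that order did not. In XO gonads 8 of the 9 neighbouring pairs overlapped, so that only the step from C16C8.19 down to M176.10 was larger than the spread between libraries.

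Shares of the 10 genes in their summed counts were set side by side for XO whole worms and XO gonads. F26D10.13 made up 16.5% ± 1.07 of their summed counts in XO whole worms and 10.8% ± 3.11 in XO gonads (SD, n = 3 each). M176.10 made up 4.55% ± 0.114 in XO whole worms and 7.94% ± 1.39 in XO gonads, and F54D12.9 5.37% ± 0.659 in XO whole worms and 7.53% ± 0.807 in XO gonads. F26D2.16 held the largest mean share, 20.0% ± 1.10 in XO whole worms and 23.5% ± 0.845 in XO gonads, although K12H6.9, at 18.9% ± 3.36 in XO whole worms, reached 22.6% in 1 of those libraries and there exceeded it. C16C8.19 made up 6.95% ± 0.0306 in XO whole worms and 5.88% ± 1.05 in XO gonads. For these 5 genes the shares of the tissues did not overlap between libraries, and for the other 5 they did. The shares sum to a whole within each library, so they are not independent of each other. They are defined within the 10 genes alone, so no share over all genes stands beside this count. Because the XO gonad libraries were used to choose the genes, this is a description with no test.

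By the WBcel235 annotation 7 of the 10 genes lie on chromosome II, 2 on V and 1 on IV. Of all matched gene rows, 17.4% are on chromosome II. None of the 10 is on the X chromosome, of which XO animals have a single copy. The annotated proteins have a median length of 141.5 residues, and 8 of the 10 are under 200 residues, against a median of 334 residues and 23.9% under 200 over 19205 protein-coding genes. The exceptions are M176.10 with 454 residues and F26D2.16 with 417. F26D10.13 overlaps an annotated piRNA gene on its own strand, and none of the other 9 overlaps another annotated gene.

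The genes next to the 10 were examined because 4 of the 10 share a clone with another. Counting 3 annotated genes on each side gave 50 flanking genes, of which 29 were tested in whole worms. Of these, 16 were called higher in XO whole worms and 4 lower by edgeR's quasi-likelihood test, where 29.2% of all genes tested were higher and 24.2% lower. In gonads 20 were tested, 7 were called higher and 7 lower in XO, where 8.07% and 19.7% of all genes tested were. Of the 29, 6 were at least 64-fold higher in XO whole worms, where 2.45% of all genes tested were. All 6 lay beside the K12H6 or C16C8 genes, namely K12H6.5, K12H6.8, C16C8.7, C16C8.8, C16C8.10 and Y49F6B.13. They held 0 to 3 counts each over the XX whole worms, so they passed the filter on low counts through the XO group alone. K12H6.5 falls outside the rule for named genes and was picked after its values were seen.

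On clone K12H6, K12H6.4 and K12H6.9 lie head to head on opposite strands, followed by K12H6.5 and K12H6.8. K12H6.8 averaged 5.93 ± 1.89 CPM in XO gonads and 0.131 ± 0.228 CPM in XX gonads, and 85.6 ± 4.40 CPM in XO whole worms and 0.0274 ± 0.0474 CPM in XX whole worms (SD, n = 3 each). XX gonads held 4 counts in all, which gives 56.7 as the XO over XX ratio (interval 21.9 to 209.7), and XX whole worms held 1, which gives 3315 (594 to 130957). All of these XX counts were in replicate 1 of their group. Without it the ratio was at least 55.6 in gonads and at least 755 in whole worms, against a floor of 3 counts over the remaining XX libraries. K12H6.5 was lower, at 11.3 ± 0.945 CPM in XO whole worms and 0.708 ± 0.255 CPM in XO gonads, where it was not tested. With 0 counts in both XX groups, its level was at least 146-fold higher in XO whole worms, against a floor of 3 counts over the XX group. The next gene, K12H6.6, did not share the pattern: it averaged 14.9 CPM in XO gonads and 36.3 CPM in XX gonads, and 31.5 CPM in XO whole worms and 43.7 CPM in XX whole worms, and was called lower in XO in both.

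The C16C8 genes form a longer run, in the order C16C8.19, C16C8.7, C16C8.8, C16C8.9, C16C8.10 and Y49F6B.13, with C16C8.19 on the plus strand and the other 5 on the minus strand. C16C8.7 averaged 65.4 ± 0.856 CPM in XO whole worms and 4.83 ± 2.03 CPM in XO gonads, with 2 counts over the XX whole worms and 1 over the XX gonads. C16C8.10 averaged 25.8 ± 2.52 CPM in XO whole worms and 2.82 ± 1.09 CPM in XO gonads, with 3 counts over the XX whole worms and 1 over the XX gonads. The XX counts of both were all in replicate 1 of their group. Without it the gonad ratio was at least 45.5 for C16C8.7 and at least 26.7 for C16C8.10, and the whole worm ratio at least 572 and at least 223. All 4 of the genes between or after the 2 chosen ones were called higher in XO in both tissues. C16C8.8 had 0 counts in both XX groups. Against a floor of 3 counts over the XX group it was 21.9-fold higher in XO gonads (interval from 17.4) and 237-fold higher in XO whole worms (interval from 192). Y49F6B.13 had 0 counts in XX gonads and 1 in XX whole worms. It was 50.6-fold higher in XO gonads against the same floor (interval from 40.7), with a ratio of 2080 (373 to 82206) in whole worms. Without XX whole worm replicate 1, which held that count, the whole worm ratio was at least 474, and the log2 fold change was 12.44, against 10.59 with it. On the other side of C16C8.19, C16C8.11, C16C8.12 and C16C8.14 were between 7.05 and 21.5 CPM in every group, none was called in whole worms and C16C8.12 alone was called higher in XO gonads. Whole worm over gonad ratios in XO animals were 13.5 for C16C8.7, 10.9 for C16C8.8, 9.15 for C16C8.10, 13.8 for Y49F6B.13, 14.4 for K12H6.8 and 15.9 for K12H6.5. Whether neighbouring genes are near-identical copies that share reads was not checked, since no sequence was used here.

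**Figure D5:**
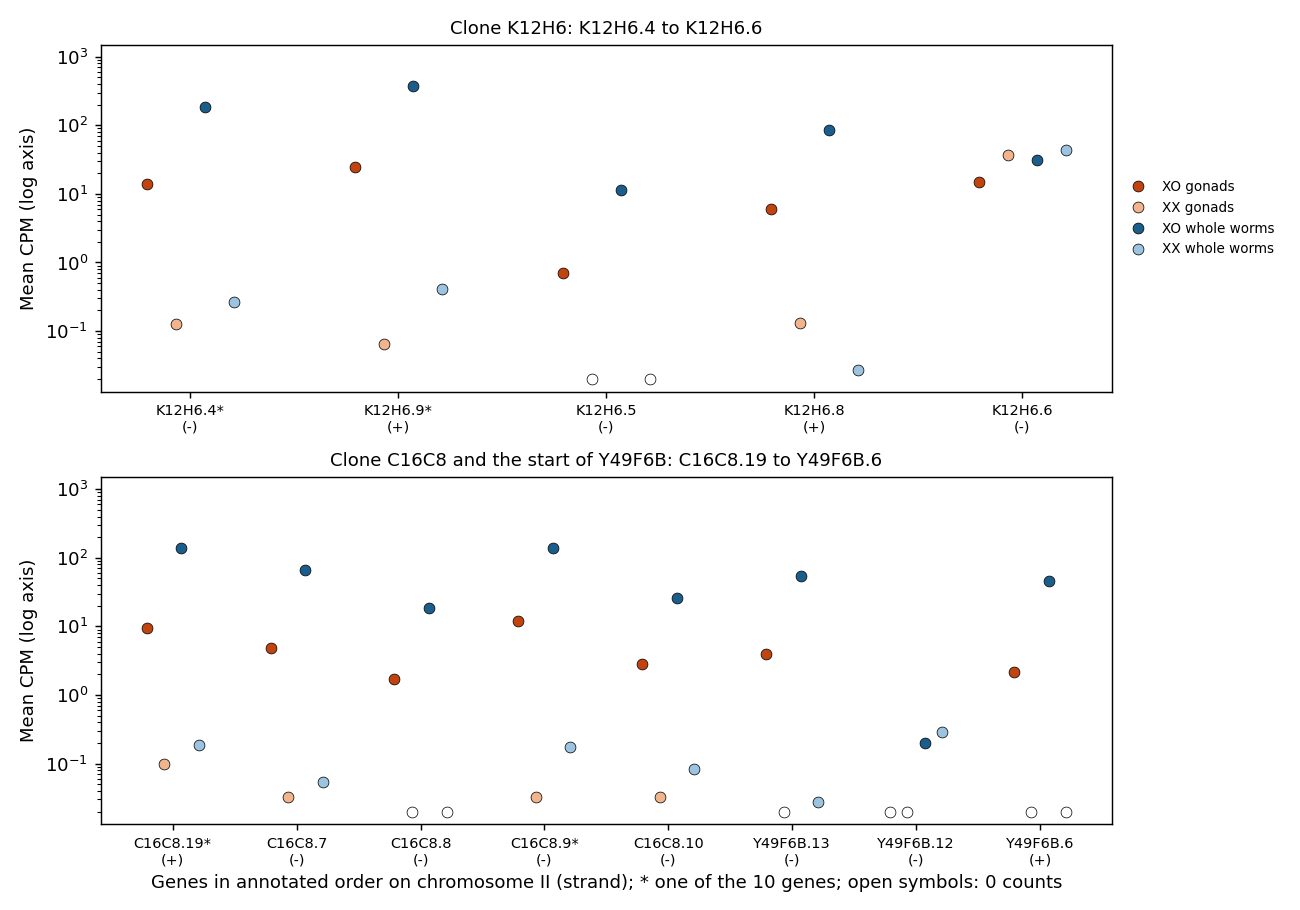
Mean CPM (log axis) in the 4 groups for genes in annotated order around the K12H6 genes (top) and the C16C8 genes (bottom), with the strand in brackets and open symbols for 0 counts. K12H6.6 and Y49F6B.12 break the pattern of high XO and near-0 XX levels that the genes before them show, and Y49F6B.6, outside the rule for named genes, shows it again.

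Around the other 6 genes no flanking gene was at least 64-fold higher in XO whole worms. None of the 6 flanking genes of F26D2.16 and none of the 6 of T10D4.15 passed the filter on low counts in whole worms, and most of them, such as str-55, srw-48 and sri-43, belong to chemoreceptor families by symbol. Both chosen genes thus stood among neighbours at under 1 CPM in every group. The 2 genes next to F54D12.9, F54D12.7 and F54D12.10, were likewise at or under 0.127 CPM in every group. None of the 6 flanking genes of T10D4.15 held a count in either XX group. Of these, T10D4.11 held 23 counts over the XO whole worms and 5 over the XO gonads, and T10D4.1 held 10 and 0. Both were picked after their values were seen, and neither was tested. The flanking genes of F26D2.16 held counts in both karyotypes or in none. M176.10 lies beside M176.11, which held 85 counts over the XO gonads and 262 over the XX gonads (log2 fold change -1.72, SE 0.25, adjusted p = 0.00296 by edgeR's quasi-likelihood test) and was not called in whole worms. K11D12.6 lies between K11D12.13 and K11D12.7. K11D12.13 averaged 2.75 ± 0.0781 CPM in XO whole worms and 31.8 ± 3.74 CPM in XX whole worms (log2 fold change -3.50, SE 0.14) and was also lower in XO gonads (-2.29, SE 0.36). K11D12.7 averaged 107 ± 8.14 CPM in XO whole worms and 16.9 ± 0.241 CPM in XX whole worms (log2 fold change 2.70, SE 0.08), but was lower in XO gonads (-1.51, SE 0.25). ZK550.6, beside F26D10.13, averaged 74.0 ± 7.31 CPM in XO whole worms and 40.4 ± 1.87 CPM in XX whole worms (log2 fold change 0.91, SE 0.08), and 1.64 ± 0.281 CPM in XO gonads and 0.364 ± 0.308 CPM in XX gonads (2.38, SE 0.48). Its gonad call was lost without XX gonad replicate 2 (adjusted p = 0.0589). From summed counts its gonad ratio was 4.80, and 7.65 without XX gonad replicate 1.

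Farther off on the same clones, 3 more genes were at least 64-fold higher in XO whole worms, where 2.45% of all genes tested were. These were C16C8.17, ins-31 and T10D4.7, the last outside the rule for named genes. C16C8.17 averaged 2.04 ± 0.909 CPM in XO gonads and 0.113 ± 0.0729 CPM in XX gonads, and 27.8 ± 0.864 CPM in XO whole worms and 0.0274 ± 0.0474 CPM in XX whole worms. Its 1 XX whole worm count was in replicate 1, and without that library its whole worm ratio was at least 245. ins-31, of the insulin-like peptide family, lies on the clone of T10D4.15. It averaged 31.6 ± 14.2 CPM in XO gonads and 0.405 ± 0.592 CPM in XX gonads, and 415 ± 9.08 CPM in XO whole worms and 0.383 ± 0.663 CPM in XX whole worms. Its whole worm log2 fold change was 10.15 (SE 0.42), and 15.38 without XX whole worm replicate 1, which held all of its XX whole worm counts. Of its 13 XX gonad counts, 2 lay outside XX gonad replicate 1, and its gonad ratio was 93.1 with that library and 445 (123 to 3679) without it. Over all 88 other genes that share a clone with one of the 10, 22 of 52 tested in whole worms were called higher in XO and 7 lower, where 29.2% of all genes tested were higher and 24.2% lower. mlk-1, a protein kinase gene on the clone of K11D12.6, averaged 1.01 ± 0.455 CPM in XO gonads and 5.30 ± 2.62 CPM in XX gonads (log2 fold change -2.30, SE 0.61), a call lost when any of 5 of the 6 gonad libraries was left out.

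Genes outside the 10 with the most similar pattern were ranked by Pearson's r of log2(CPM + 1) with the mean standardized profile of the 10 over the 12 libraries, among 5371 genes with at least 10 CPM on average in XO gonads. The points share their libraries, and the 4 groups dominate r, so it is a description with no test. The 10 highest were fipr-28, F09C6.10, B0222.10, F18E9.7, C05B5.11, nspf-3, try-8, ins-31, T02H6.9 and srlf-2, with r between 0.992 and 0.999. The 10 genes themselves had r between 0.995 and 0.999. try-13 came next at 0.985. fipr-28 averaged 14.6 ± 3.76 CPM in XO gonads and 0.186 ± 0.268 CPM in XX gonads, and 204 ± 11.2 CPM in XO whole worms and 0.297 ± 0.455 CPM in XX whole worms. try-8 averaged 36.0 ± 13.3 CPM in XO gonads and 0.260 ± 0.203 CPM in XX gonads, and 439 ± 3.24 CPM in XO whole worms and 0.480 ± 0.659 CPM in XX whole worms. Their whole worm over gonad ratios in XO animals ran between 7.82 for nspf-3 and 19.7 for srlf-2, over nearly the same range as those of the 10. XO gonad replicate 3 exceeded the mean of replicates 1 and 2 in each of them, between 1.36 times for nspf-3 and 2.06 times for ins-31. Both likenesses follow in part from the ranking, which used the same libraries. F18E9.7 is the single one of the 10 highest on the X chromosome.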

How the data were processed

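The deposited values are whole-number read counts per gene, 1 table a library, not normalized. TopHat2 2.0.12, HTSeq, CASAVA 1.8, Cufflinks 2.2.0 and SAMtools 1.2 are named in the submitters' processing notes, with no role. The genome build, annotation and strand setting of the counting are not given in the sources used here, although the labels' protocols describe dUTP libraries. Reads of overlapping genes therefore cannot be told apart with certainty, and no coordinates are printed. Lines that count reads with no gene (1.90% to 6.42%), several genes (0.728% to 1.09%) or several places in the genome (4.99% to 20.3%) stayed out of library sizes and tests.

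Groups and replicate numbers came from sample titles. Tests used edgeR 4.0.16 in R 4.3.3, with TMM scaling, a filterByExpr minimum count of 10, quasi-likelihood fits (robust) on the 6 libraries of a tissue, 2-sided tests and Benjamini-Hochberg adjustment at 0.05 over all genes tested. SE is an approximate standard error, the size of a log2 fold change over the square root of its quasi-likelihood F. For genes with near-0 XX counts it can understate the error. C16C8.9, for example, has an SE of 0.15 in whole worms, where its XO over XX ratio of 775 has a counting interval of 376 to 1928. CPM are counts over library size, scaled by TMM over all 12 libraries. Ratios of XO over XX are from summed counts with exact 95% conditional binomial intervals, and a group with 0 counts was set to a floor of 3 counts over the group. Ratios given as at least a value rest on this floor and lie above the lower limits of those intervals. Whole worm over gonad ratios are of mean CPM. Reads were amplified and carry no molecular identifiers, so intervals and floors cover counting error only.

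The 10 genes, the 9 marker lists and the tests were chosen with earlier results of these data known. Named flanking genes were the up to 12 flanking or clone-sharing genes past the test and 2-fold with the largest gonad change. Gene rows were matched to the WBcel235 annotation, 19899 of 20389 to 1 gene each, for names, strand, order and lengths. The symbol ssp-9 matched 2 gene rows, both kept in the sperm list. On simulated counts, the procedure was checked before use, with far smaller fold changes than those of the 10 genes. The changed genes had counts in both groups, so the check does not cover near-0 XX counts. Alternatives were DESeq2 1.42.0, RLE scaling, no filter, 12 libraries in 1 fit, a replicate block and each replicate left out. Leaving out XX replicate 1 for marker lists and for ratios of flanking genes was chosen after seeing the data. Comparisons of protein relatives, protein composition and promoter motifs were not run, since sequences were not used here.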

Additional observations from a re-analysis of the deposited data

Results flagged for a closer look

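Near the 10 genes, 5 genes were called in opposite directions in the gonad and the whole worm comparison of XO with XX, and the difference between the tissues was past the threshold for the karyotype by tissue term in edgeR's quasi-likelihood test on all 12 libraries. The genes were picked for their opposite calls in the same libraries, so this test gives no independent support. The difference is the gonad log2 fold change minus the whole worm one, and all 3 values are given from the fit on 12 libraries. It was -4.31 for K11D12.7 (SE 0.22, adjusted p = 9.04e-08), which was lower in XO gonads (-1.53) and higher in XO whole worms (2.78). For mlk-1 it was -2.91 (SE 0.57, adjusted p = 0.00389), with -2.32 in gonads and 0.59 in whole worms. M176.4 had a difference of -2.34 (SE 0.31, adjusted p = 0.000144), with -1.35 in gonads and 0.99 in whole worms. For atgp-1 it was -1.63 (SE 0.25, adjusted p = 0.000461), with -0.89 in gonads and 0.75 in whole worms. swt-7 had a difference of -1.28 (SE 0.15, adjusted p = 7.20e-05), with -0.81 in gonads and 0.47 in whole worms. With each tissue fitted alone, as elsewhere, the gonad call of mlk-1 was lost when any gonad library other than XX gonad replicate 1 was left out, with values between -1.86 and -2.74, and its whole worm call was lost in the fit on 12 libraries (0.59, adjusted p = 0.192). That of atgp-1 was lost without XO gonad replicate 1 (-0.69), XO gonad replicate 3 (-0.95), XX gonad replicate 2 (-0.95) or XX gonad replicate 3 (-0.84).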

How the results depend on the processing

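The whole worm calls of the 10 genes kept their direction and stayed past the threshold in every alternative fit, with log2 fold changes between 8.73 and 12.97. This covers 110 values, 1 for each gene in each fit, and the 10 genes share each fit. All 10 passed the filter on low counts through the XO group alone and had near-0 XX counts. Calls of that kind were unlikely to be lost in any of these fits, so their being kept is no added support. The number of genes called in gonads, 2376, was 4046 with all 12 libraries in 1 fit, and between 1741 and 3785 with a replicate left out, the highest without XX gonad replicate 1. With a single nearest gene on each side, flanking genes called numbered 7 higher and 1 lower in XO whole worms, and 4 higher and 3 lower in XO gonads, fewer because fewer genes were counted. Pairing by replicate number was not seen: deviations of same-numbered XO and XX libraries correlated at -0.51, -0.27 and -0.17 in gonads and at -0.01, 0.00 and -0.02 in whole worms. Unlike-numbered gonad libraries correlated between -0.42 and 0.51. Deviations from a mean of 3 libraries sum to 0, so these values cannot decide whether the samples were paired. With the replicate block, 6244 genes were called in whole worms, against 6546 without it, and 1622 in gonads, and the 10 genes kept their calls (highest adjusted p = 0.00215 by edgeR's quasi-likelihood test). Of the 10 genes most like the chosen ones, 6 were shared with the list at a minimum of 2 CPM. Whole worm over gonad ratios of the 10 genes ran between 8.62 and 21.9 under RLE scaling. The near-0 XX counts limit the precision of all XO over XX ratios.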

Other observations

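The 10 genes belong to a larger set of 300 genes that were called at least 64-fold higher in XO than in XX whole worms, a threshold chosen after the values were seen. Of these, 112 had more than 30 counts over the XO gonads, and 24 had none. Among the 112, the whole worm over gonad ratio in XO animals had a median of 13.8 and quartiles of 10.7 and 30.8, between 5.67 and 407. Of the 296 with a chromosome, 76 (25.7%) lie on chromosome II and 73 (24.7%) on chromosome V, against 17.3% and 18.8% of all genes tested in whole worms. On the X chromosome lie 27 (9.12%), against 14.2% of all genes tested. The median annotated protein of the 300 has 189 residues. These shares are given with no test.

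Y49F6B.6, beyond the run of C16C8 genes and picked after its values were seen, had 0 counts in both XX groups. It averaged 45.3 CPM in XO whole worms and 2.157 CPM in XO gonads.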
